A study of Mus musculus with 32 samples.

Results

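The genes described here are 8 long non-coding RNAs, the nuclear RNAs Malat1 and Neat1 and the small nucleolar RNA (snoRNA) host genes Gas5, Snhg1, Snhg5, Snhg6, Snhg8 and Snhg12. They were taken by name, and all 8 were among the 18588 genes of the table. Microglia were captured with CD11b MicroBeads from forebrains pooled over several animals for each library, and all animals were female. In rTg4510 mice, human 4-repeat tau (P301L) sits behind a tetracycline-responsive element, and a CaMKIIα-driven tTA switches it on in forebrain neurons after birth. WT littermates carried neither transgene. Both genotypes were compared at 2, 4, 6 and 8 months of age in the 28 libraries that passed the study's QC. Each genotype kept 4 libraries at the ages of 2 and 6 months, and 3 at the ages of 4 and 8 months.

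Malat1 is retained in the nucleus at nuclear speckles, the bodies rich in splicing factors. Neat1 is the RNA scaffold of paraspeckles, nuclear bodies that hold RNA-binding proteins, and it is made in larger amounts under cellular stress. The snoRNA host genes carry snoRNAs in their introns. After splicing the snoRNAs guide chemical modification of ribosomal and other RNAs, whereas many of the spliced hosts are short-lived because translation by ribosomes exposes them to nonsense-mediated decay.

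Values are log2 gene signals with the same median, 5.63, in each library. No scaling to gene length is described in the study's methods. Levels were therefore not compared between genes, except for the rank and share of Malat1 and for nearness to the lowest signals. A gene is said to have risen or fallen where limma's linear model gave a Benjamini-Hochberg false discovery rate (FDR) under 0.05 over all 18588 genes, and it is a differentially expressed gene (DEG) where the change also exceeded 1.5 fold. All 11 microglia markers were well above the lowest signals in both genotypes, but several moved with genotype. At 6 months 2 of the 11 were higher and 3 lower DEGs, and 10 had an FDR under 0.05 (median change -0.30). Of all genes, 19.8% were DEGs and 34.1% had an FDR under 0.05 at that age. Neutrophil markers moved further (median change -1.95 at 6 months). The log2 summed signal of 6 neutrophil markers was 9.0 to 10.24 in WT and 7.37 to 8.10 in rTg4510 at 6 months. Of the 6, 5 were lower DEGs at 6 and at 8 months, where 19.8% and 15.9% of all genes were DEGs. None of the 6 was a DEG at 2 or 4 months, but at 4 months their sums were already apart (9.08 to 9.99 in WT and 8.16 to 8.90 in rTg4510). So were those of 4 B cell markers (6.27 to 7.27 against 5.13 to 6.12), 2 of which were lower DEGs, beside 13.8% of all genes called. The sums of the microglia, neuron, astrocyte and border macrophage markers were also lower in rTg4510 without overlap at that age. Of single genes, 17.5% were lower without overlap there. Those of the endothelial and oligodendrocyte markers overlapped. None of the neutrophil markers lay near the lowest signals of the libraries. At 6 months 3 of 5 endothelial, 2 of 6 astrocyte, 1 of 4 neuron and 1 of 4 border macrophage markers were also lower DEGs. None of 4 B cell or 7 oligodendrocyte markers was. These counts stand beside the 19.8% of all genes called in either direction. The endothelial and astrocyte markers were mixed, with 1 of the 5 and 1 of the 6 higher DEGs at that age. The part of these cells in the results below was not tested, and a change in the cells captured and a change of RNA per cell cannot be told apart. Mouse Mapt, the endogenous tau gene, did not pass the test at any age, and the human transgene was not analysed here.

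The 8 genes did not all differ between the genotypes. Malat1 fell in rTg4510 from 4 months of age. The 4 snoRNA hosts Gas5, Snhg1, Snhg5 and Snhg6 rose at 2 or more of the later ages. Gas5, however, did not pass at any age under quantile normalization. Snhg8 and Snhg12 passed the test at no age. Neat1 was higher on average at each age. It passed the test at 6 and 8 months when libraries with the same replicate number were treated as pairs at every age. Without the pairing it did not pass over all 28 libraries. At 2 months 0 of the 8 were DEGs, against 1.98% of all genes, and 0 had an FDR under 0.05, against 6.03%, although 2 (Gas5 and Snhg1) had an unadjusted p under 0.05 and moderated variances also gave 0. At 4 months 2 were DEGs, Malat1 and Snhg6, against 13.8% of all genes. Snhg1 and Snhg6 were the 2 DEGs at 6 months, against 19.8%, and the 2 at 8 months, against 15.9%. By FDR alone 4, 5 and 5 of the 8 changed at 4, 6 and 8 months, where 23.2%, 34.1% and 25.7% of all genes did.

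**Figure D1:**
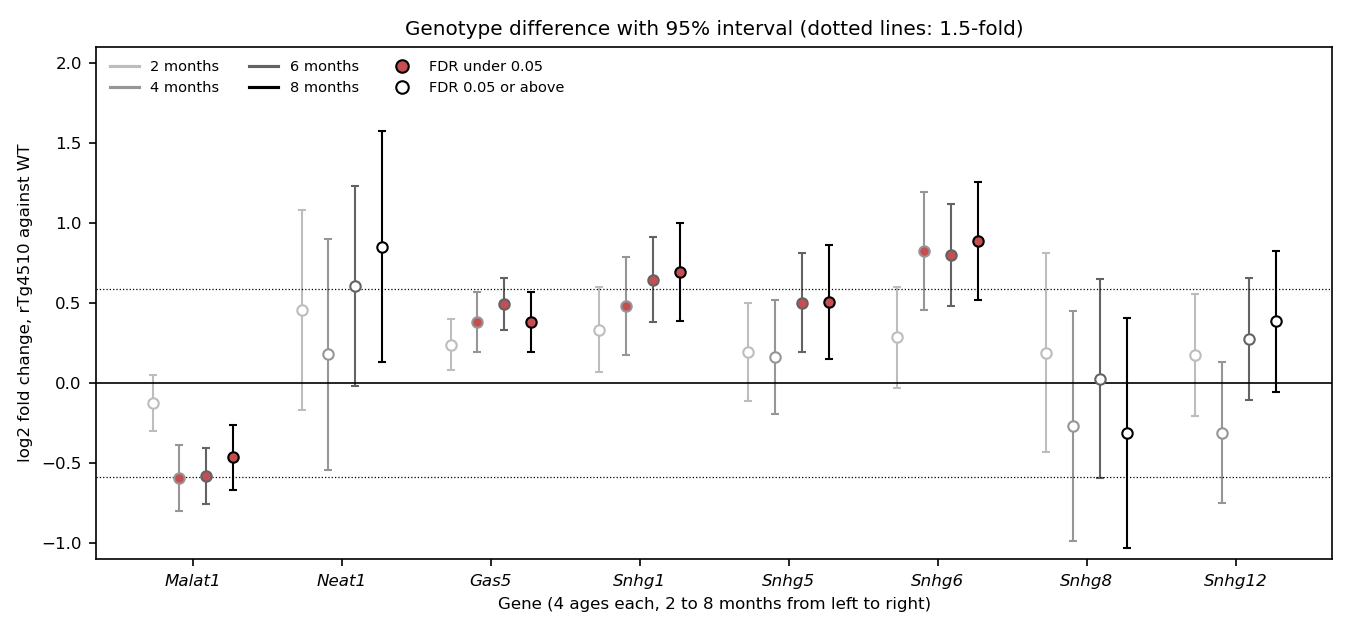
The log2 fold change of rTg4510 against WT (y axis) is drawn for each of the 8 genes at 2, 4, 6 and 8 months, from left to right, with 95% intervals from the limma model. Filled points have an FDR under 0.05; these are Malat1 below zero and Gas5, Snhg1 and Snhg6 above zero from 4 months, and Snhg5 above zero at 6 and 8 months.

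At 4 months all rTg4510 libraries lay above all WT libraries for 3 of the 8 genes (19.1% of all genes) and below them for 2 (17.5%). The counts were 3 above (18.2%) and 1 below (14.6%) at 6 months, and 5 above (21.2%) and 1 below (15.5%) at 8 months. At 2 months the genotypes overlapped for all 8, where 7.49% of all genes lay wholly above and 3.51% wholly below.

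Malat1 (Entrez 72289, chr19:5795690-5802672 of GRCm38.p6, minus strand) had the highest signal of any gene in all 28 libraries. At 2 months its log2 signal was 20.76, 20.92, 20.91 and 20.92 in WT and 20.57, 20.83, 20.63 and 20.99 in rTg4510. The genotypes overlapped, and the difference of -0.12 (SE 0.09) did not pass the test (limma FDR 0.538). At 4 months it was 21.18, 20.99 and 21.24 in WT and 20.61, 20.45 and 20.57 in rTg4510. All 3 rTg4510 libraries lay below all 3 WT libraries, and Malat1 had fallen by 0.59 (SE 0.10), or 1.51-fold, at a limma FDR of 9.98e-05.

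At 6 months Malat1 was 21.16, 21.15, 21.38 and 21.24 in WT against 20.60, 20.52, 20.64 and 20.85 in rTg4510. The change of -0.58 (SE 0.09; 1.495-fold, limma FDR 1.42e-05) stayed just under the fold threshold of a DEG. It passed that threshold under 75th percentile centring (-0.63) and without WT replicate 1, WT replicate 2 or rTg4510 replicate 4 of that age (-0.60, -0.61 and -0.65). At 8 months the values were 21.14, 21.22 and 21.14 in WT and 20.62, 20.78 and 20.70 in rTg4510, a change of -0.46 (SE 0.10, limma FDR 0.00109). The genotypes did not overlap at 4, 6 or 8 months. The fold change at 4 months slipped under 1.5 without rTg4510 replicate 2, WT replicate 1 or WT replicate 4 of that age, with an FDR of at most 0.00117 in each case. With all 32 libraries the difference at 4 months was -0.28 (limma FDR 0.443), and quantile normalization gives no value for a gene that ranks first throughout.

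The order of the group means for Malat1 ran from rTg4510 at 4 months (20.54 ± 0.08, SD, n = 3) through the other rTg4510 groups to WT at 2 months (20.88 ± 0.08, SD, n = 4), and then to WT at 4, 8 and 6 months (21.23 ± 0.11, SD, n = 4, at 6 months). Of the 7 steps between neighbours in this order, the one from WT at 2 months to WT at 4 months, 0.26, exceeded the spread of both groups. The genotype difference at 4 months was further below zero than at 2 months (interaction -0.47, SE 0.13, limma FDR 0.0312), where 7.33% of all genes had an FDR under 0.05 and 4.66% were called with the fold minimum as well. This interaction had an FDR of 0.1001 when only its 4 groups were fitted and was -0.15 (limma FDR 0.871) with all 32 libraries. It also lost its FDR (0.0540 to 0.0996) without any one of 7 libraries, which were replicates 2 and 4 of rTg4510 at both 2 and 4 months, replicate 1 of WT at 2 months, and replicates 1 and 4 of WT at 4 months. Within WT, Malat1 was 0.29 (SE 0.09) higher at 8 than at 2 months, with a limma FDR of 0.0811.

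Summed on the linear scale, Malat1 made up 26.2% ± 1.04 (SD, n = 4) of a WT library's signal at 2 months and 31.2% ± 0.807 (SD, n = 4) at 6 months. In rTg4510 the share was 23.3% ± 2.46 (SD, n = 4) at 2 months and 20.4% ± 1.5 (SD, n = 4) at 6 months. At 8 months the shares were 31.0% ± 0.419 in WT and 22.2% ± 0.351 in rTg4510 (SD, n = 3 each). These are shares of modelled gene signals and not of reads, and mitochondrial genes are not among them. From 4 months on, the lowest WT library had a larger share than the highest rTg4510 library.

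**Figure D2:**
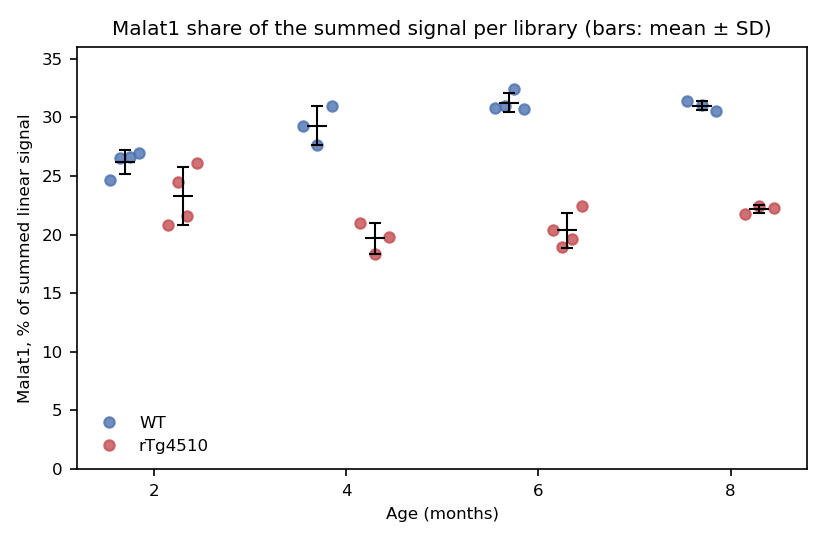
Share of Malat1 in the summed linear signal of each library (y axis, %) against age, with points for libraries and bars for the mean ± SD. WT libraries at 6 months lie between 30.8% and 32.4% and rTg4510 libraries between 18.98% and 22.4%.

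The region around the annotated start of Malat1 is shown because it was a DEG, and it was taken from RefSeq promoters of GRCm38.p6 (6 of the 8 genes had an entry; Neat1 and Snhg6 did not). It spans 100 bases before the start to 50 bases from it, chr19:5802623-5802772 on the minus strand. Promoter windows from 250 bases before to 50 bases from the start were searched on both strands for the E-box CACGTG, the CCAAT box, the GC box GGGCGG and the TATA box TATAAA, and for an unbroken run of 5 or more C or T within 5 bases of the start. Capitals mark these in the printed stretch. Malat1 held none of them.
Malat1: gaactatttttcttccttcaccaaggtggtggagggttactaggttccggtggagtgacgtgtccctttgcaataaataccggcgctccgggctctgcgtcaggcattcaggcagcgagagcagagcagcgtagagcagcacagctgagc

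Of 32851 windows of this length in the same table, 7.15% held the E-box, 37.4% the CCAAT box, 35.7% the GC box, 13.6% the TATA box and 31.4% a pyrimidine run at the start. A match or its absence is a description of these letters only.

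Neat1 (Entrez 66961, chr19:5824708-5845480, minus strand) is the nearest gene of the table on one side of Malat1, 22036 bases away. Its log2 signal at 6 months was 13.02, 12.56, 14.08 and 13.82 in WT and 13.79, 13.62, 14.30 and 14.19 in rTg4510, so the groups overlapped. At 8 months it was 13.35, 13.92 and 13.00 in WT and 14.27, 14.38 and 14.18 in rTg4510, with all rTg4510 libraries higher. The differences at 2, 4, 6 and 8 months were 0.46, 0.18, 0.60 and 0.85 (SE 0.30 to 0.35), with limma FDRs of 0.514, 0.768, 0.129 and 0.0785.

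The spread of Neat1 within groups was wide (pooled SD 0.42, above that of 75.2% of all genes) and followed the replicate number. Over the 14 same-numbered pairs of libraries, the deviation of the WT library from its group mean and that of the rTg4510 library had the same sign in 13, and their r was 0.80. The rTg4510 library was higher in 13 of the 14 pairs, the exception being replicate 1 at 4 months (-0.30). At 6 months the pair differences were 0.77, 1.05, 0.23 and 0.36, and at 8 months 0.92, 0.46 and 1.18. With the replicate number as a block at every age, Neat1 was a DEG at 6 months (0.60, SE 0.17, limma FDR 0.0181). It was also a DEG at 8 months (0.85, SE 0.19, limma FDR 0.00832), and 20% and 16.1% of all genes were called at these ages. Without the block it reached an FDR of 0.0380 at 6 months only without WT replicate 3 of that age, and 0.0495 or 0.0405 at 8 months without WT replicate 2 of 6 or of 8 months. Quantile normalization, without the block, took the differences to 0.19 at 6 months and 0.47 at 8 months (limma FDR 0.627 and 0.284). What a replicate number stands for is not given in the sources used here.

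**Figure D3:**
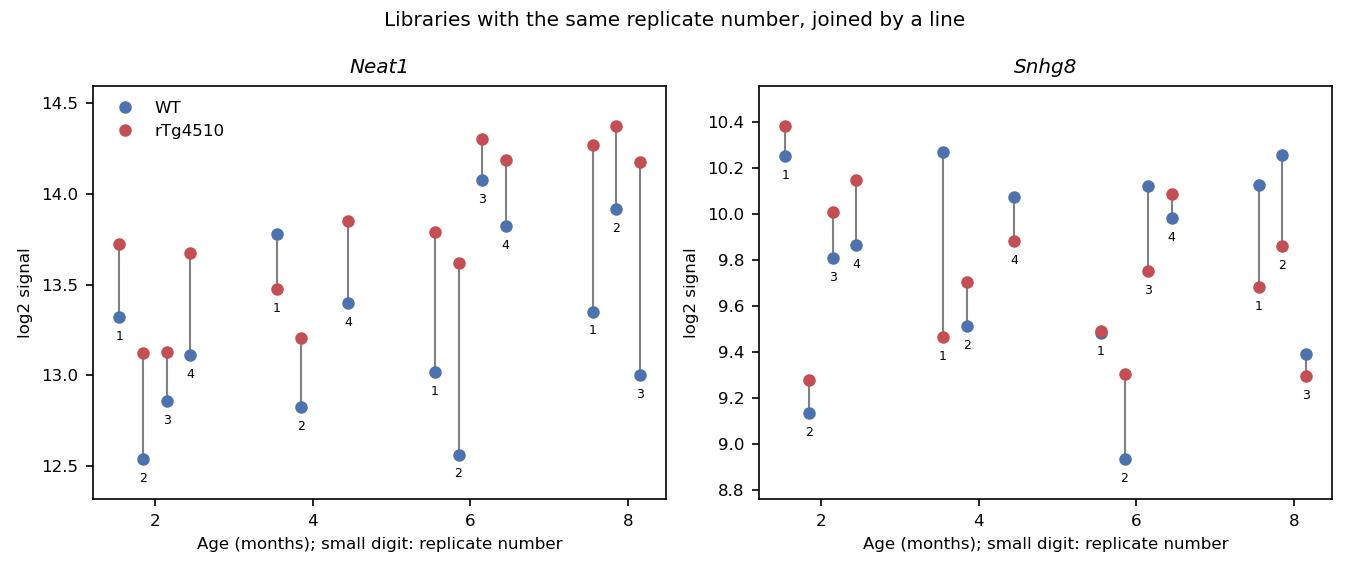
log2 signal of Neat1 (left) and Snhg8 (right) in each library (y axis) against age, with WT and rTg4510 libraries of the same replicate number joined by a line. For Neat1 the rTg4510 library is the higher one in 13 of 14 pairs, and for Snhg8 in 8 of 14.

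Since both RNAs are nuclear and lie side by side, the log2 ratio of Malat1 to Neat1 was formed within each library. It was 7.92 ± 0.40 in WT and 7.34 ± 0.37 in rTg4510 at 2 months (SD, n = 4 each), and 7.86 ± 0.61 against 6.68 ± 0.25 at 6 months (SD, n = 4 each). At 4 months it was 7.80 ± 0.38 against 7.03 ± 0.27, and at 8 months 7.74 ± 0.42 against 6.43 ± 0.09 (SD, n = 3 each). The differences of rTg4510 from WT were -0.58, -0.77, -1.18 and -1.32 at the 4 ages, with two-sided exact permutation p-values of 0.0857, 0.1, 0.0286 and 0.1. The values at 4, 6 and 8 months are the smallest that 3 against 3 (0.1) and 4 against 4 libraries (0.0286) allow, and each was 0.1 after adjustment over the 4 ages by the exact test. The ratio was lower in the rTg4510 library of all 14 same-numbered pairs. With libraries taken as pairs, the exact sign-flip permutation p was 0.125 at 6 months and 0.25 at 8 months, the smallest that 4 and 3 pairs allow.

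Proteins of the 2 nuclear bodies were mostly below the fold threshold. Of 16 paraspeckle proteins, 0 were DEGs at 2, 6 and 8 months in the limma fit, and Hnrnph3, an RNA-binding protein named here after its values were seen, was the 1 lower DEG at 4 months (-0.63, SE 0.11, limma FDR 1.60e-04). An unadjusted p under 0.05 was reached by 5, 5, 7 and 5 of the 16 at the 4 ages. An FDR under 0.05 was reached by 0, 3, 6 and 5, beside 6.03%, 23.2%, 34.1% and 25.7% of all genes. None of 17 speckle and splicing factors was a DEG at any age, with an unadjusted p under 0.05 in 1, 10, 10 and 9. By FDR alone 6, 6 and 5 of the 17 changed at 4, 6 and 8 months, beside 23.2%, 34.1% and 25.7% of all genes. Their median log2 fold changes at these ages were -0.20, -0.18 and -0.17, beside -0.04, -0.04 and -0.01 over all genes, and -0.26, -0.28 and -0.32 under quantile normalization.

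Among 16 other long non-coding RNAs of a fixed list, Pvt1, the RNA next to Myc, was a higher DEG at each of the 4 ages (0.62, SE 0.12, at 6 months). Meg3, an imprinted RNA, differed by -1.44 (SE 0.41) at 6 months and Jpx, an RNA of the X-inactivation centre, by -0.68 (SE 0.20). Both were DEGs at that age (limma FDR 0.00915 and 0.0112). Ftx, of the same centre, named after its values were seen, was a lower DEG at 4 and 8 months, and Meg3 also at 4 months. The median of the 16 was -0.30 at 6 months. With 75th percentile centring the list had 0 higher DEGs at 6 months, so the call of Pvt1 was lost there, and with quantile normalization it had 3, 4 and 5 lower DEGs at 4, 6 and 8 months and a median of -0.50 at 6 months.

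Snhg6 (Entrez 73824, chr1:9942025-9944118, minus strand), host of Snord87, had the largest rise among the hosts. At 4 months its log2 signal was 4.70, 5.04 and 4.61 in WT and 5.34, 5.68 and 5.81 in rTg4510. At 6 months it was 5.14, 4.51, 4.80 and 4.68 in WT and 5.63, 5.56, 5.55 and 5.58 in rTg4510, and at 8 months 4.74, 4.17 and 4.44 in WT and 5.25, 5.43 and 5.33 in rTg4510. The rTg4510 libraries were higher without overlap at all 3 ages, whereas at 2 months the groups overlapped.

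The rises of Snhg6 at 4, 6 and 8 months were 0.83 (SE 0.18, limma FDR 0.00130), 0.80 (SE 0.15, limma FDR 2.96e-04) and 0.89 (SE 0.18, limma FDR 5.56e-04), or 1.77-, 1.74- and 1.85-fold. At 2 months the difference was 0.29 (SE 0.15, limma FDR 0.375). In WT, Snhg6 at 8 months differed from 2 months by -0.58 (SE 0.16, limma FDR 0.0503), and in rTg4510 these 2 ages differed by 0.02 (95% interval -0.32 to 0.37). Fitted on the 3 against 3 libraries of an age alone, the FDR at 4 months was 0.0769 and at 8 months 0.0507. Mcmdc2 overlaps Snhg6 in the annotation and was not in the table, and whether reads were assigned by strand is not given in the sources used here.

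Snhg1 (Entrez 83673, chr19:8723487-8726326, plus strand), host of 8 annotated snoRNAs, was 6.02, 5.92, 6.49 and 6.44 in WT and 6.90, 6.96, 6.97 and 6.61 in rTg4510 at 6 months. At 8 months it was 6.03, 6.24 and 6.29 in WT and 6.99, 6.69 and 6.96 in rTg4510. No library of one genotype reached into the range of the other at 4, 6 or 8 months. It rose by 0.64 (SE 0.13, limma FDR 4.19e-04) at 6 months and by 0.69 (SE 0.15, limma FDR 0.00111) at 8 months, and was a DEG at both.

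At 4 months Snhg1 was 6.37, 6.18 and 6.40 in WT and 6.74, 6.78 and 6.86 in rTg4510, a rise of 0.48 (SE 0.15, limma FDR 0.0215) under the fold threshold. That FDR became 0.0715 without rTg4510 replicate 4 and 0.0924 without WT replicate 2 of that age. At 6 months the rise fell below the fold threshold without WT replicate 1 (0.58) or WT replicate 2 (0.54). Slc3a2, the heavy chain of amino acid transporters and the neighbour 118 bases from Snhg1, rose by 0.44, 0.42 and 0.46 at 4, 6 and 8 months (SE 0.08 to 0.09, limma FDR 9.80e-04, 2.22e-04 and 4.72e-04). Wdr74, on the other side at 9469 bases, did not pass the test (0.22, SE 0.11, at 6 months).

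Gas5 (Entrez 14455, chr1:161034601-161038539, plus strand), an RNA named for its accumulation in growth-arrested cells and the host of 8 annotated snoRNAs, had the narrowest spread of the 8 genes (pooled SD 0.11). Its log2 signal at 6 months was 10.46, 10.42, 10.59 and 10.58 in WT and 10.90, 10.94, 11.06 and 11.13 in rTg4510. At 4 months it was 10.71, 10.52 and 10.72 in WT and 10.98, 11.04 and 11.06 in rTg4510, and at 8 months 10.34, 10.66 and 10.51 in WT and 10.90, 10.996 and 10.76 in rTg4510. The rTg4510 libraries were all higher at each of these ages.

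Gas5 rose by 0.38 (SE 0.09, limma FDR 0.00306) at 4 months, 0.49 (SE 0.08, limma FDR 3.19e-05) at 6 months and 0.38 (SE 0.09, limma FDR 0.00266) at 8 months, each under 1.5 fold. At 2 months it was 0.24 higher (SE 0.08, limma FDR 0.0777), and in all 14 same-numbered pairs the rTg4510 library was the higher one. Quantile normalization, which gives every library the same distribution of signals, took these differences to 0.00, 0.08 and -0.01 at 4, 6 and 8 months (limma FDR 0.986, 0.386 and 0.930), whereas with 75th percentile centring they were 0.36, 0.45 and 0.34 (limma FDR 0.00525, 1.21e-04 and 0.00689). Within rTg4510, Gas5 was 0.30 higher at 4 than at 2 months (SE 0.08, limma FDR 0.0176), where 15.2% of all genes had an FDR under 0.05. That FDR was 0.0529, 0.0579 or 0.0697 without rTg4510 replicate 3 of 2 months, replicate 2 of 4 months or replicate 4 of 4 months.

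Zbtb37, a zinc finger gene that overlaps Gas5 in the annotation, moved the other way, with changes of -0.46, -0.64 and -0.57 at 4, 6 and 8 months (SE 0.12 to 0.14, limma FDR 0.0198, 2.44e-04 and 0.00362). Where strand was not used in counting, reads from the overlap cannot be assigned to one gene.

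Snhg5 (Entrez 72655, chr9:88521052-88522897, minus strand), host of 2 annotated snoRNAs, was 6.62, 6.69, 6.75 and 7.10 in WT and 7.07, 7.20, 7.40 and 7.48 in rTg4510 at 6 months. At 8 months it was 6.60, 6.998 and 6.78 in WT and 7.42, 7.22 and 7.25 in rTg4510. The lowest rTg4510 library lay just inside the WT range at 6 months, and the groups were separate at 8 months. It rose by 0.50 (SE 0.15, limma FDR 0.0114) at 6 months and 0.51 (SE 0.17, limma FDR 0.0321) at 8 months, and the difference at 4 months did not pass the test (0.16, SE 0.17, limma FDR 0.550). The FDR at 8 months rose to between 0.0533 and 0.135 without any of the 3 rTg4510 libraries or without WT replicates 1 or 3 of that age.

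The start region of Snhg1 is shown beside that of Malat1 because it too was a DEG, with capitals as above. It covers chr19:8723387-8723536 on the plus strand of GRCm38.p6, again 100 bases before and 50 from the start.
Snhg1: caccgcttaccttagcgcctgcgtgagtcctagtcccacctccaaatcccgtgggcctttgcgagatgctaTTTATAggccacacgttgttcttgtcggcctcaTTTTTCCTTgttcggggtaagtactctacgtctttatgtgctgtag

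The first capitals in Snhg1 are a TATA box read on the other strand, at -29 from the start, and the second a pyrimidine run of 9, a feature known from genes of the translation machinery. Snhg5 held a TATA box at -23 from its start and no such run. Gas5 has 2 annotated starts, 1 with a run of 6 and 1 without, and Snhg12 had a run of 9. Snhg8 held both, a TATA box at -30 from its start and a run of 7. The GC box was in the windows of Gas5, Snhg1, Snhg5 and Snhg8 but not of Snhg12. The CCAAT box was in those of Snhg5 and Snhg8, and the E-box in none of the hosts. Among the hosts with a window, no single motif thus separated those that rose from those that did not. Snhg6, which rose, had no window.

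Snhg8 (Entrez 69895, chr3:123507552-123508336, minus strand) ranged from 8.93 to 10.38 over the 28 libraries, and the 8 groups accounted for 13.1% of its variance. The differences at 2, 4, 6 and 8 months were 0.19, -0.27, 0.03 and -0.31, and the genotypes overlapped at each age. The interval at 6 months ran from -0.59 to 0.65, so a change of 1.5 fold in either direction was within it. In 12 of the 14 same-numbered pairs both libraries deviated from their group means in the same direction (r = 0.79).

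Snhg12 (Entrez 100039864, chr4:132308678-132311024, plus strand), host of 4 annotated snoRNAs, ranged from 5.41 to 6.56. Its differences were 0.18, -0.31, 0.28 and 0.39, with limma FDRs of 0.734, 0.324, 0.265 and 0.203. At 4 months the 3 rTg4510 libraries (5.80, 5.66 and 5.84) lay below the 3 WT libraries (6.20, 5.91 and 6.13), and at the other ages the genotypes overlapped. The 95% interval at 4 months was -0.75 to 0.13.

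**Figure D4:**
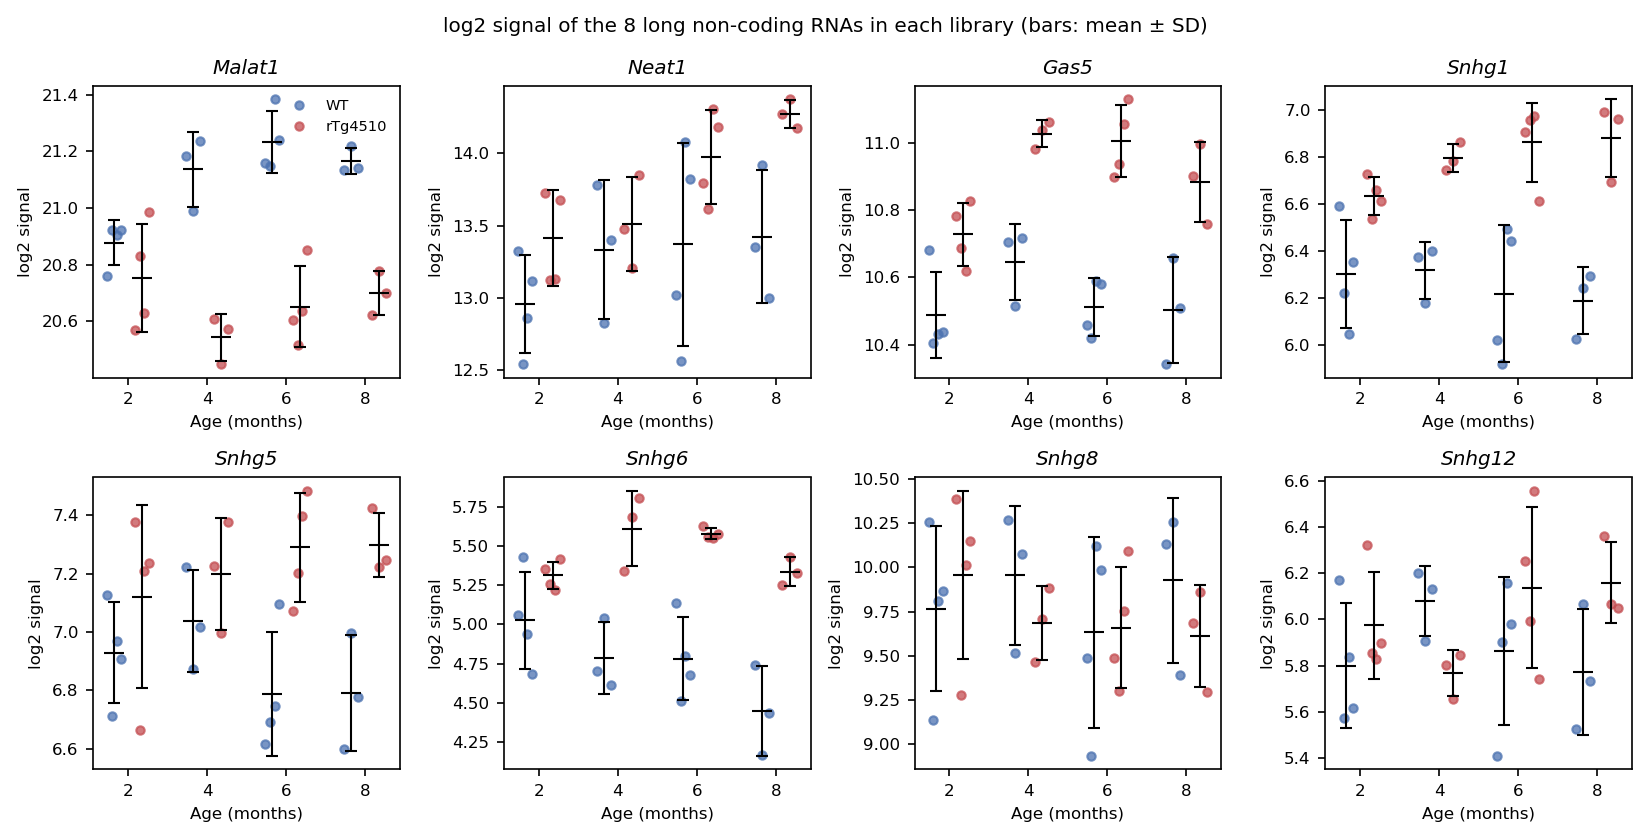
log2 signal of each of the 8 genes (y axis, one panel a gene) in each WT and rTg4510 library against age, with bars for the mean ± SD. The genotypes separate from 4 months for Malat1 (20.45 to 20.61 against 20.99 to 21.24 at 4 months), Gas5, Snhg1 and Snhg6, and overlap at each age for Snhg8.

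Differences between the genotype effects of neighbouring ages were otherwise not detected for the 8 genes. From 4 to 6 months none passed (lowest limma FDR 0.608, 1 with an unadjusted p under 0.05, Snhg12), where 0.156% of all genes were called, and from 6 to 8 months none passed (0 with an unadjusted p under 0.05), where 0% were. Within WT, 0 of the 8 were DEGs between 4 and 2, 6 and 4, 8 and 6 or 8 and 2 months, and 0.0484%, 0.00538%, 0% and 1.27% of all genes were, with an unadjusted p under 0.05 in 1, 0, 0 and 2 of the 8. In rTg4510 the same comparisons also gave 0 DEGs, with 6.39%, 0.818%, 0.00538% and 10.5% of all genes and an unadjusted p under 0.05 in 2, 0, 0 and 1. The 1 at 8 against 2 months was Neat1, 0.86 higher (SE 0.32, limma FDR 0.0640).

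No rise was detected for the snoRNAs that lie inside the hosts. Of the annotated snoRNAs, 8 had a row of their own, namely Snord47 in Gas5, Snord22 in Snhg1, Snord87 in Snhg6, Snora24 in Snhg8, and Snora16a, Snora44, Snora61 and Snord99 in Snhg12. Neither a DEG nor an unadjusted p under 0.05 was found among them at any age in the limma fit (0 of 8 each), and their median difference at 6 months was -0.09. Snord47 differed by -0.26, -0.0035 and -0.24 at 4, 6 and 8 months. Its 95% interval at 6 months, -0.27 to 0.26, did not reach the 0.49 of Gas5. Under quantile normalization Gas5 differed by 0.08 at 6 months (limma FDR 0.386), and Snord47 was not examined under that scaling. Snord87 differed by 0.72, 0.05 and -0.43 with SEs of 0.35 to 0.41, and its 95% interval ran from -0.14 to 1.57 at 4 months, around the 0.83 of Snhg6, and from -0.68 to 0.79 at 6 months, up to the 0.80 of Snhg6. Snord22, inside Snhg1, had a wider interval at 6 months, -1.15 to 0.97.

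Snord47 and Snord87 are shown because their hosts rose. Both are box C/D snoRNAs, which guide 2′-O-methylation, and capitals mark the TGATGA of box C and the last CTGA, box D. The sequences are GENCODE M21 transcripts, Snord47 at chr1:161038082-161038158 (plus strand) and Snord87 at chr1:9942463-9942549 (minus strand) of GRCm38.
Snord47: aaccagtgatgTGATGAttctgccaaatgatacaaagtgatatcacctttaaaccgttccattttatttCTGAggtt
Snord87: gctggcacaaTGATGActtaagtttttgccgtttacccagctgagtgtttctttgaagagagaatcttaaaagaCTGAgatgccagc

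Formed within libraries, the log2 ratio of Gas5 to Snord47 at 6 months was 2.40 ± 0.11 in WT and 2.90 ± 0.13 in rTg4510 (SD, n = 4 each; difference 0.50, two-sided exact permutation p = 0.0286). Of 32 such comparisons (8 snoRNAs at 4 ages), 4 reached 0.0286, the smallest p that 4 against 4 allows, and by the exact test none passed adjustment over the 32 (0.229). These ratios were added after the values had been seen. They rest on the deposited scaling, whereas quantile normalization took the difference of Gas5 at 6 months to 0.08. Snora24 and its host Snhg8 moved together over the 28 libraries (r = 0.96). Reads of a snoRNA and of its unspliced host cannot be told apart, and how well RNAs this short were captured is not given in the sources used here.

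**Figure D5:**
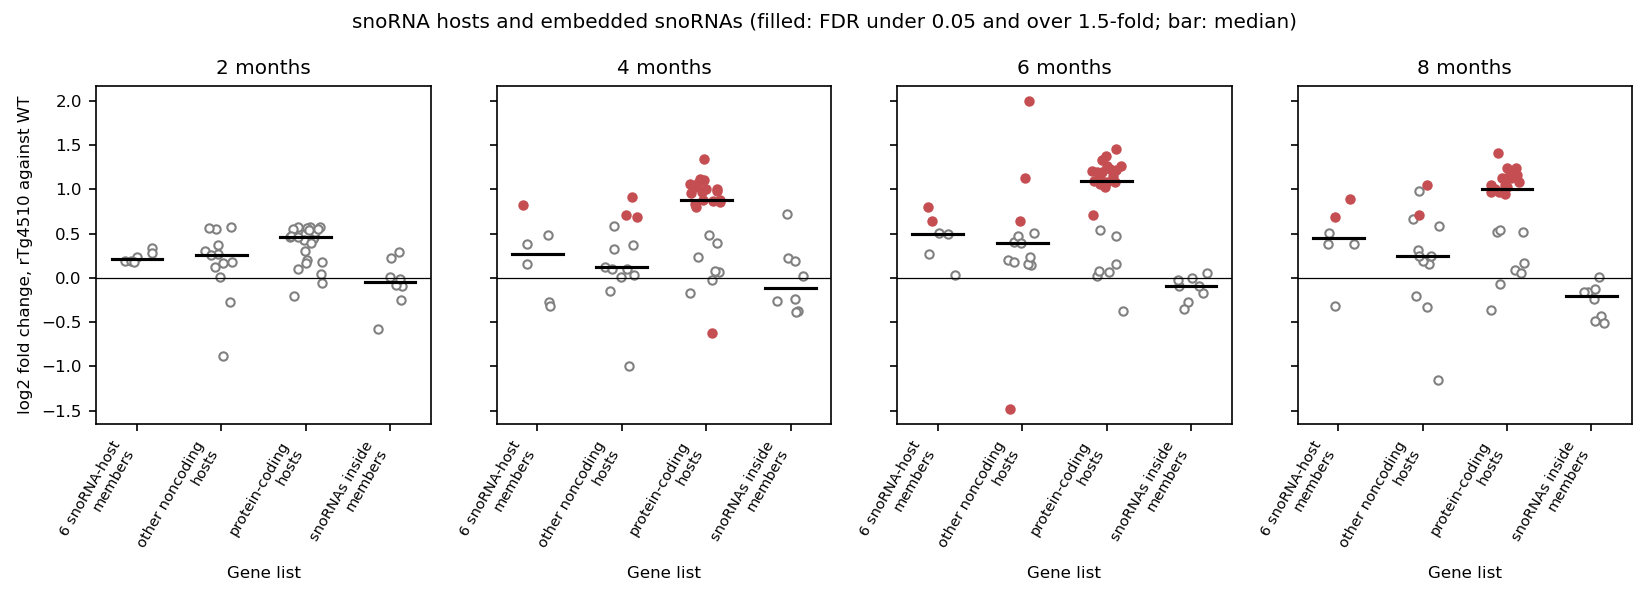
log2 fold change of rTg4510 against WT (y axis) at 4 ages for the 6 host genes described here, 13 other non-coding hosts, 25 protein-coding hosts and the 8 snoRNAs inside the first group; filled points are DEGs and bars are medians. The listed protein-coding hosts, largely ribosomal protein and translation genes, have medians of 0.88, 1.09 and 1.004 at 4, 6 and 8 months. The snoRNAs lie around zero with none filled.

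Most protein-coding snoRNA hosts of a fixed list rose as well. The list does not hold all such hosts and is largely made of ribosomal protein and translation genes. Of 25 protein-coding hosts, 0 were DEGs at 2 months (21 with an unadjusted p under 0.05 and 19 with an FDR under 0.05 in the limma fit), and 17, 18 and 17 were higher DEGs at 4, 6 and 8 months, against 9.47%, 11.3% and 10.5% of all genes. Under quantile normalization 16, 18 and 17 were. The largest at 6 months were Rps20 and Rpl23a, proteins of the small and the large ribosomal subunit, at 1.46 (SE 0.11) and 1.38 (SE 0.11). Many of these hosts encode ribosomal proteins with near-identical pseudogene copies, so their signals are uncertain where reads match several places. Hspa8, a heat shock chaperone named after its values were seen, was the 1 lower DEG of the list, at 4 months (-0.62, SE 0.14, limma FDR 0.00182).

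Of 13 other non-coding hosts in the table, 0 were DEGs at 2 months (3 with an unadjusted p under 0.05 in the limma fit). An FDR under 0.05 was reached by 2, 4, 5 and 3 of the 13 at the 4 ages, beside 6.03%, 23.2%, 34.1% and 25.7% of all genes. At 4, 6 and 8 months 10, 9 and 11 were not DEGs, and 3, 3 and 2 were higher DEGs, against 9.47%, 11.3% and 10.5% of all genes. Zfas1, host of box C/D snoRNAs, was one at all 3 ages (1.13, SE 0.14, limma FDR 1.12e-06 at 6 months). Snhg10 was 1.99 higher at 6 months (SE 0.50), from a WT mean of 2.19 that lay close to the lowest signals of the libraries (1.23 to 1.92). Snhg11, an RNA of neurons, was the 1 lower DEG, at 6 months (-1.48, SE 0.46). The median of the 13 was 0.40 at that age, beside -0.04 over all genes.

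Of 16 snoRNP proteins and assembly factors, 0, 2, 0 and 1 were higher DEGs at the 4 ages, with an unadjusted p under 0.05 in 1, 6, 6 and 6. By FDR alone 5, 4 and 4 of the 16 changed at 4, 6 and 8 months, beside 23.2%, 34.1% and 25.7% of all genes. The DEGs were Nhp2 and Nop10, both H/ACA core proteins, at 4 months (0.65 and 0.86) and Nhp2 at 8 months (0.70), named after their values were seen. Of 15 nonsense-mediated decay and exon junction factors, 0 were DEGs at each age in the limma fit. An unadjusted p under 0.05 was found in 0, 4, 5 and 3 of the 15, and an FDR under 0.05 in 0, 2, 4 and 2. By FDR alone 6.03%, 23.2%, 34.1% and 25.7% of all genes changed at the 4 ages. The median of the 15 at 6 months was -0.02.

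Over the 28 libraries, which differ in genotype and age, the r between the hosts that rose was 0.84 for Gas5 and Snhg1, 0.79 for Gas5 and Snhg5, and 0.69 for Gas5 and Snhg6. Malat1 ran against them, with r of -0.81 to Snhg6 and -0.75 to Snhg1. Taken as deviations from the group means, the pattern changed. Neat1 and Snhg8 had the highest r, 0.87, Neat1 and Gas5 had 0.72, Malat1 and Gas5 had 0.39, and Snhg6 and Gas5 had -0.21.

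The genes most like each member over the 28 libraries were named by Pearson's r. For Gas5 they were Pcna, the replication clamp, with the ribosomal protein Rpl3 and the translation factor Eif4a1, both snoRNA hosts (r = 0.93 for each). For Snhg1 they were Zfas1, Cd83 and Ftl1 (0.92, 0.92 and 0.91), for Snhg5 Hnrnpa1, Mcl1 and Sat1 (0.86, 0.86 and 0.84), and for Snhg6 Hsbp1, Rpl34-ps2 and Nutf2-ps1 (0.91, 0.89 and 0.88). Malat1 was nearest to Mir3108, Col6a3 and Lbr (0.88, 0.87 and 0.86), and Neat1 to H2-Q5, Gm8783 and Gm15801 (0.93, 0.93 and 0.92). Snhg8 was nearest to Snora24, Gm5129 and Snora31 (0.96, 0.88 and 0.87), and Snhg12 to Relch, Rabgef1 and Herpud1 (0.74, 0.74 and 0.70). As deviations from the group means, Neat1 was nearest to Ppp1r15a, a stress-induced regulator of translation, Snora81 and the chaperone gene Dnajb4 (r = 0.96, 0.95 and 0.94). These are descriptions over libraries that share the pools and normalization.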

How the data were processed

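The deposited values are log2 gene signals, 1 per Entrez gene and library. The authors summed exon reads, dropped exons with low counts in most samples, combined the exons of a gene in a robust linear model, took log2 and median normalized. The submitters' processing notes name GRCm38; the aligner, the annotation and the use of strand are not given in the sources used here. The study's methods state 1 approximate sequencing depth for all samples, but totals per library were not used here and log2 signals keep no counts, so the number of libraries limits the precision. Libraries of a group were biological replicates from pooled animals. The 4 libraries that failed the study's QC (replicate 3 of both genotypes at 4 months, replicate 4 of both at 8 months) entered only the analysis of all 32.

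Computed here, with limma 3.58.1 in R 4.3.3, was a linear model per gene with 8 group means, unmoderated variances (20 residual degrees of freedom) and Benjamini-Hochberg adjustment within a contrast over 18588 genes. DEGs needed an FDR under 0.05 and over 1.5 fold. The model was tested on simulated data. Ratios were compared by two-sided exact permutation tests over libraries (scipy 1.17.1). Symbols, positions and promoters came from RefSeq GRCm38.p6 (95.9% of the Entrez numbers matched). The 8 genes, the lists and the rules were chosen with earlier results of these data known. Named were the 8 genes, up to 2 genes per direction of each list by the change at 6 months, the 3 nearest in pattern, and annotation neighbours. In the marker lists, no mitochondrially encoded gene and 4 of 9 neuron markers were in the table.

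Both genotypes carry replicate numbers. Deviations of same-numbered libraries from their group means correlated over genes with r of 0.131 to 0.153 at 6 months and 0.150 to 0.291 at 8 months, but 0.0649 to 0.167 at 2 months and -0.0999 to 0.124 at 4 months. The numbers were taken to pair the libraries at 6 and 8 months, on the values alone. This choice used the same signals as the tests, so the block fit is not independent of it. Libraries of different number had r of up to 0.0816, 0.154, 0.0913 and -0.0281 at 2, 4, 6 and 8 months. The block was nevertheless fitted at every age in the same model, with 10 residual degrees of freedom. Its SEs and FDRs at 6 and 8 months thus rest in part on the pairing at 2 and 4 months. Alternatives were moderated variances, quantile and 75th percentile scaling, a filter at the 25th percentile of signal, only the groups of a contrast, all 32 libraries, a replicate block, and leaving out each library.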

Additional observations from a re-analysis of the deposited data

Results flagged for a closer look

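Within groups of 4 libraries, 3 of 32 combinations of gene and group held a library set apart from the other 3 by a gap that passed Dixon's test, which chance gives in about 1 of 20 groups. WT replicate 1 at 2 months was the lowest for Malat1 (20.76 against 20.91 to 20.92, gap 0.887 of the range) and the highest for Gas5 (10.68 against 10.40 to 10.44, gap 0.874 of the range). In rTg4510 replicate 1 at 2 months, Snhg12 was the highest (6.32 against 5.83 to 5.90, gap 0.859 of the range). Without WT replicate 1, the difference of Gas5 at 2 months was 0.30 with a limma FDR of 0.0185.

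The genotype effect on Malat1 differed between 4 and 2 months by the interaction test (-0.47, limma FDR 0.0312), but not when only the 4 groups were fitted (FDR 0.1001) or with all 32 libraries (-0.15, FDR 0.871). The difference was -0.59 at 4 months and -0.12 at 2 months, with rTg4510 lower in 3 of 3 and 3 of 4 same-numbered pairs.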

How the results depend on the processing

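Quantile normalization gave Malat1 no value, since the gene ranks first in every library, and the DEG count at 4 months then was 1 and the counts by FDR alone 2, 3 and 3 at 4, 6 and 8 months; Snhg6 became 1 DEG for WT at 8 against 2 months. Under it Neat1 at 4 months turned to -0.18, Snhg8 at 6 months to -0.21 and Gas5 at 8 months to -0.011. With 75th percentile centring Snhg8 at 6 months was -0.019. With only the groups of a contrast there was 1 DEG at 4 and 1 at 8 months, and 2 by FDR alone at 8 months. With all 32 libraries there were 2 by FDR alone at 6 months, and 1 DEG and 1 by FDR alone at 8 months; Snhg8 at 4 months turned to 0.34, Malat1 at 4 months was -0.28 (limma FDR 0.443), and the Malat1 to Neat1 ratio differed by -0.86 and -1.35 at 4 and 8 months (exact p = 0.0286 each). With the replicate block 1 gene, Gas5, passed by FDR alone at 2 months (limma FDR 0.0397), Snhg1 at 4 months had an FDR of 0.0533, and Neat1 was added at 6 and 8 months; it changed no other genotype call. Taken as pairs, an alternative added after seeing the data, the Malat1 to Neat1 ratio at 6 months (-1.18) had an exact p of 0.125, the smallest possible.

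Leaving out 1 library at a time, DEG counts ranged from 0 to 0, 1 to 2, 2 to 3 and 2 to 4 at the 4 ages (4 without WT replicate 2 of 8 months), those by FDR alone at 2 months from 0 to 1 (WT replicate 1 of 2 months), and those at 8 against 2 months from 0 to 1 in WT (Snhg6, without WT replicate 4 of 2 months or replicate 1 of 8 months) and in rTg4510 (Neat1, without WT replicate 2 or 3 of 6 months). The ratio at 6 months lay between -1.37 and -0.94 (exact p = 0.0571). Snhg8 ranged from -0.021 to 0.41 at 2 months and from -0.21 to 0.19 at 6 months, and Neat1 at 4 months from -0.076 to 0.40. The median of all genes moved by under 0.1 with each scaling, but quantile normalization took the share of higher DEGs at 2 months from 79.6% to 68.3% of calls. Filtering low signals and moderated variances changed no genotype count beyond 1.5 times.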

Other observations

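The 4 libraries that failed the study's QC had values outside those of their groups for several of the 8 genes. At 4 months, rTg4510 replicate 3 was at 12.05 for Gas5, 7.17 for Snhg6, 11.27 for Snhg8 and 5.43 for Snhg5, and WT replicate 3 at 9.88, 5.15, 9.12 and 5.596. At 8 months, Malat1 was 20.22 in WT replicate 4 and 19.76 in rTg4510 replicate 4. Malat1 was also 19.87 in WT replicate 3 at 4 months.

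Prnp, the mouse prion gene examined beside Mapt as a check of the transgene, was 1.19 higher in rTg4510 at 6 months (SE 0.36, limma FDR 0.0140). The difference was of similar size at 4 months (1.13, SE 0.42) but did not pass the test (limma FDR 0.0563). At 8 months it was 0.28 (SE 0.42, limma FDR 0.674). Whether this signal came from the mouse gene alone was not tested.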
